A study of Caenorhabditis elegans with 2 samples.

Results

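A set of 10 genes of Caenorhabditis elegans that encode RNA-binding or poly(A)-adding regulators of translation in the germline and early embryo was examined for binding of the transcription factor APTF-2 near their starts. They are a named set of 10 of the 19973 protein-coding genes, by symbol, and all 10 were matched in the annotation. The set holds the STAR/KH protein gene gld-1, the KH gene mex-3, the poly(A) polymerase gene gld-2 and its partner gld-3, the PUF genes fbf-1 and fbf-2, and the CCCH zinc finger genes pos-1, mex-5, oma-1 and oma-2. APTF-2 is one of the worm's AP-2 family transcription factors. The members do not act on DNA. They bind mRNAs, or act with proteins that do, and hold translation off or switch it on as germ cells leave the stem cell pool, pass through meiosis, mature as oocytes and form the first blastomeres, and several of them regulate one another's mRNAs.

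Chromatin immunoprecipitation and sequencing (ChIP-seq) was done with an antibody to GFP on whole young adults of strain RW12304 at 61.5 h. The allele st12304 places a TY1::EGFP::3xFLAG tag at aptf-2 itself by CRISPR, so both replicates carry the tagged gene, and the animals had been synchronised by bleaching and L1 starvation. There was 1 group, of 2 biological replicates with 1 technical replicate each. Chromatin had been sheared to between 200 and 800 bp, and a whole adult mixes germline with all somatic tissues, so the cells in which a peak arose are not known. A library without the tag was not analysed here, and the depth of the libraries is unknown because the values used are peak lists.

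A gene was counted as bound when a peak summit lay in its promoter window, from 1000 bp before to 200 bp past any of its protein-coding starts. The main list, the conservative one thresholded by IDR (irreproducible discovery rate, a measure of how well the order of peaks repeats), held 892 peaks from both replicates. The ranked list from both replicates held 94866 peaks with no threshold, and each peak carried the authors' signal and an IDR score with a maximum of 1000. The lowest score in the main list was 830, the median signal was 102.9 in the main list and 26.7 in the ranked list. With 1 group and no contrast, the values below are descriptions, and none carries a p-value.

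The summit windows of pos-1 and mex-5 are printed because the first held the strongest peak of the set and the second the strongest peak that stayed outside the main list. Each is 201 bases of the plus strand of WBcel235 (ce11), the strand on which both genes are transcribed, with the summit at base 101. The pos-1 window is chrV:8413694-8413894 and the mex-5 window is chrIV:13353345-13353545. Capitals mark the stretch from the lowest to the highest of the summits called in the ranked lists of both replicates, replicate 1 and replicate 2, which is 40 bases in pos-1 and 23 bases in mex-5.
pos-1: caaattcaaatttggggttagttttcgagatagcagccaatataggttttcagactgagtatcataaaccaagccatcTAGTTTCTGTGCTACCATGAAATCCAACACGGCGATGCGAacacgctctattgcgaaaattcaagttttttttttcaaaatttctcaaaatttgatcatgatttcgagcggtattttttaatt
mex-5: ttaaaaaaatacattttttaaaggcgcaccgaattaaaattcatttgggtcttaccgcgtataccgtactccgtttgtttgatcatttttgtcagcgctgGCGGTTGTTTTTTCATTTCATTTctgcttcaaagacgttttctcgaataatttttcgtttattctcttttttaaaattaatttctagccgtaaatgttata

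In the main list, 2 of the 10 members (20.0%) had a summit in the promoter window, gld-2 and pos-1, beside 629 of all 19973 genes (3.15%). The other list thresholded from both replicates held the same 2 members, beside 3.07% of all genes. None of the 10 had a summit in the thresholded list of replicate 1, which named 1.46% of all genes, or in that of replicate 2, which named 1.7%. The 2 calls therefore rest on the lists built from both replicates.

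In the ranked list 9 of the 10 members had a summit, all but fbf-1, beside 75.1% of all genes. The other ranked list from both replicates gave 9 members, all but oma-1, beside 74.1%. Replicate 1's ranked list also gave 9, all but oma-1, beside 57.1%, and replicate 2's gave 8, all but fbf-1 and oma-1, beside 55.1%. A ranked peak near a start was thus common over all genes, so the members are described below by the strength of their peaks. Over the 9 members the median of the highest signal was 42.98 (interquartile range 34.2 to 67.4), against 35.26 (26.0 to 46.5) over the 15000 genes with a ranked summit. The median of the highest IDR score was 150 over the members and 94 over all those genes. The ranked windows of the members held 18 summits in all, of which 2 were in the main list and 15 had a score under 300, a limit set here for description. Low scores were common, with a median of 69 over all ranked peaks.

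**Figure D1:**
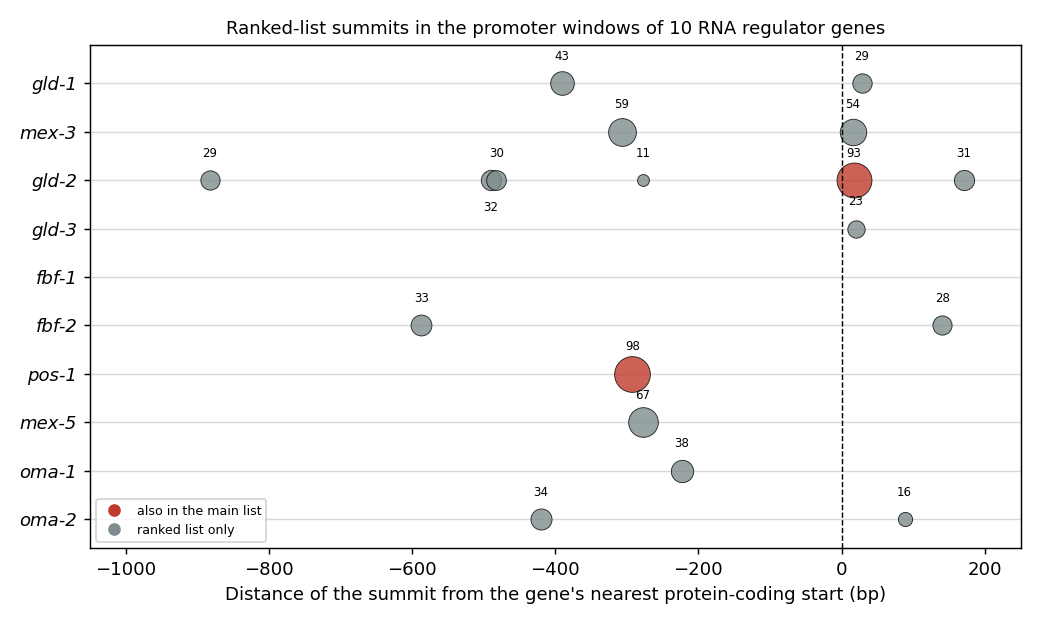
Ranked-list summits in the promoter windows of the 10 genes, by distance in bp from the nearest protein-coding start of the gene (negative values lie upstream). Circle area and the printed number give the signal. The circles of gld-2 (93.4) and pos-1 (98.2) mark peaks also in the main list, and fbf-1 has none.

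Among the CCCH zinc finger genes, pos-1 carried the strongest peak of the set. POS-1 is a maternally supplied protein that sets which mRNAs are translated in the posterior blastomeres of the embryo. pos-1 (WBGene00004078) is transcribed from V:8414086-8415254. Its one ranked peak (V:8413646-8413941) lay between genes, with the summit 292 bp upstream of the start, a signal of 98.15 and an IDR score of 1000. It was peak 497 of the 892 in the main list by signal, and pos-1 was gene 426 of 15000 by highest signal. Its replicate values were 50.5 in replicate 1 and 44.3 in replicate 2, which put the gene in the top 3.8% and the top 5.78% of genes with a ranked summit in each list. The replicate summits lay 17 bp to the right and 22 bp to the left of the joint one. The same summit lay 312 bp upstream of vha-18, a divergent gene named for a vacuolar ATPase subunit, so the peak cannot be assigned to one of the pair.

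Over the 7605 genes with a summit in the ranked lists of both replicates and of each replicate, the genes whose 3 highest signals were most like those of pos-1 were vha-18, which shares the peak, C52B9.4 and eif-2Bgamma, a gene named for a subunit of translation initiation factor eIF2B. The distance in log10 signal was 0.00958 for C52B9.4, with signals of 99.98 in the joint list, 50.1 in replicate 1 and 44.8 in replicate 2. It was 0.0103 for eif-2Bgamma, with 96.4, 49.98 and 44.9. Both had a main-list summit in their window.

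Part of the pos-1 summit window is repeated in the genome. Bases 1 to 101 of the printed sequence matched 13 other places over at least 80 bp at 90% identity or more, with a median match of 94 bp. The count depends on that minimum, which was lowered from 100 bp after the values were seen. At 100 bp the window had 2 copies, counting itself. Of these 13 places, 7 lay under a ranked peak, with a median signal of 36.7 and a highest of 59.2, and 0 lay under a main-list peak. The part played by reads from the other copies in the pos-1 signal was not tested.

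mex-5 (WBGene00003230), whose product accumulates in the anterior of the zygote and shapes the asymmetry of other germline proteins, had the third strongest peak of the set. The gene lies at IV:13353723-13356104. Its one ranked peak (IV:13353297-13353592) lay between genes, 278 bp upstream of the start, with a signal of 67.42 and an IDR score of 591, below the lowest score of the main list. The signal was 41.7 in replicate 1 and 29.0 in replicate 2, and the replicate summits lay 16 and 22 bp to the right of the joint one. The gene was in the top 6.87% in replicate 1 and only in the top 23.7% in replicate 2. Ranked peaks with a signal within 5% of that of mex-5 numbered 896, and 5 of them (0.558%) were in the main list. For pos-1 the same band held 125 peaks, of which 110 (88%) were in the main list. The mex-5 summit also lay 252 bp upstream of the divergent gene rec-8, which encodes a meiotic cohesin subunit.

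oma-1 (WBGene00003864) and oma-2 (WBGene00003865) encode closely related proteins that act together in oocyte maturation and in holding mRNAs silent in oocytes. The oma-1 peak (IV:8888605-8888900) lay 223 bp upstream, with a signal of 38.30 and an IDR score of 150, and no summit fell in its window in the ranked list of replicate 1, of replicate 2 or in the other ranked list. The strongest oma-2 peak (V:8028871-8029166) lay 420 bp upstream, with a signal of 34.16 and a score of 67, and a second lay 88 bp past the start with 15.6. Replicate 2 gave 24.6 for oma-2, from a peak 17 bp to the left of the joint summit, and replicate 1 gave 6.67, from another peak 22 bp past the start. Both genes were near the middle of the 15000, in the top 42.2% and the top 52.8%. In each of them the strongest ranked peak of the locus lay in the gene body, with 39.1 in oma-1 and 46.6 in oma-2.

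The poly(A) pair split. gld-2 (WBGene00001596, I:6369748-6386194) encodes a cytoplasmic poly(A) polymerase that lengthens mRNA tails and so favours translation, and it carried the second strongest peak of the set, whereas gld-3 (WBGene00001597), whose product binds GLD-2 and stimulates it, carried the weakest. The gld-2 peak (I:6369803-6370098) had its summit in the 5′ UTR, 17 bp past the start at 6369934 and 203 bp past the first annotated start, with a signal of 93.44 and an IDR score of 994. It was peak 550 of 892 in the main list by signal. The signal was 39.7 in replicate 1 and 54.8 in replicate 2, so that gld-2 was below pos-1 in the first and above it in the second. Replicate 1 placed its summit at the same base as the joint list and replicate 2 placed it 37 bp to the left. The other 5 ranked summits in the gld-2 windows had signals from 10.8 to 31.8 and IDR scores from 31 to 116. gld-2 has 6 separate starts and its windows cover 5949 bp, against 1201 bp for each of the 8 members with a single start, so it had more sequence in which a summit could fall. The main-list summit lay in the window of the start at 6369934 alone.

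The gld-3 peak (II:7132515-7132810) had a signal of 23.03 and an IDR score of 116, with its summit in coding sequence 20 bp past the start, and it also lay in the window of the divergent gene T07F8.4. The signals were 16.9 in replicate 1 and 19.2 in replicate 2, from summits that lay 4 and 273 bp to the left of the joint one. Only pos-1, gld-2 and mex-5 among the members had both replicate summits within 40 bp of the joint summit of their strongest peak. The limit of 40 bp was set here for description, and the share of all ranked peaks that meet it was not computed. For mex-3 the replicate summits lay 116 and 21 bp away. gld-3 was gene 12279 of 15000 by highest signal, the lowest place of the 9 members.

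**Figure D2:**
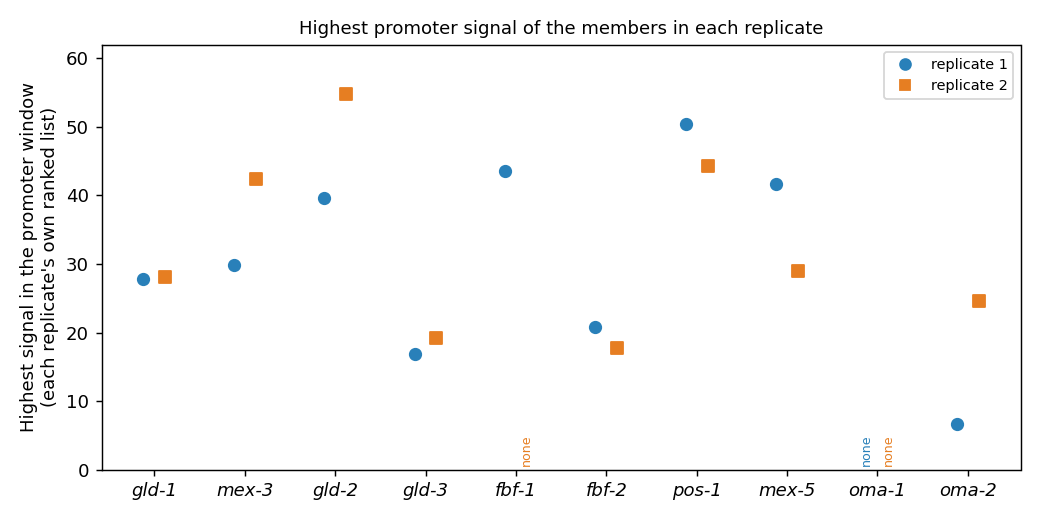
Highest ranked-list signal in the promoter window of each gene in replicate 1 and in replicate 2, each on the scale of its own list. pos-1 has 50.5 and 44.3, gld-2 39.7 and 54.8, mex-5 41.7 and 29.0, mex-3 29.8 and 42.4, and fbf-1 has a value in replicate 1 alone (43.6).

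Of mex-3 (WBGene00003229) and gld-1, mex-3 had the higher signal in the window used here. That order turned with a window of 2000 bp upstream (59.16 for mex-3 and 66.84 for gld-1). MEX-3 represses mRNAs in oocytes and in the early embryo, and GLD-1, a translational repressor of meiotic germ cells, in turn represses the mRNA of mex-3. The strongest mex-3 peak (I:128242-128537) lay in an intron, 307 bp upstream of an internal start, with a signal of 59.16 and an IDR score of 198. The second, 16 bp past another start, had 53.6 and a score of 230. Replicate 1 gave 29.8, from the second site, and replicate 2 gave 42.4, from the first, so the replicates differed in which site was strongest. mex-3 has 5 separate starts, with windows of 3702 bp.

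gld-1 (WBGene00001595) had its strongest ranked summit 391 bp upstream of its start (I:7695142-7695437), between genes, with a signal of 42.98 and an IDR score of 68. The signals of its window were 27.8 in replicate 1 and 28.2 in replicate 2, from different places. Replicate 2's summit lay 10 bp to the right of the joint one and replicate 1's lay 958 bp upstream of the start. A stronger joint peak with a signal of 66.84 and a score of 490 had its summit 1007 bp upstream, just outside the window, in a coding exon of the neighbouring gene T23G11.4. Within the gene body of gld-1 the strongest peak had a signal of 50.5.

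Neither PUF gene had a peak in its window that came near the main list. FBF-1 and FBF-2 bind the same class of mRNA element, repress gld-1 and other differentiation mRNAs, and keep germline stem cells from entering meiosis. The coding sequences of fbf-1 (WBGene00001401) and fbf-2 (WBGene00001402) were 94.4% identical where aligned and their promoter windows 70.5%, so reads from the coding parts can be hard to place, and coding-region signals of this pair are not given. fbf-2 had its strongest summit 587 bp upstream (II:6091919-6092214), inside a coding exon of the divergent gene nspg-3, with a signal of 33.41, an IDR score of 31, and 20.8 in replicate 1 and 17.7 in replicate 2.

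fbf-1 had no summit in its window in the ranked list, where the nearest one lay 208 bp past the start. In the other ranked list a summit 922 bp upstream had a signal of 49.5 and an IDR score of 74, and replicate 1's ranked list had one 867 bp upstream with 43.6 and a score of 99. Replicate 2's ranked list had none. The sequence around the summit of the other ranked list matched 9 other places over at least 80 bp, of which 7 lay under a ranked peak, with a median signal of 26.7, and 0 under a main-list peak. The part of those copies in the fbf-1 values was not tested.

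**Figure D3:**
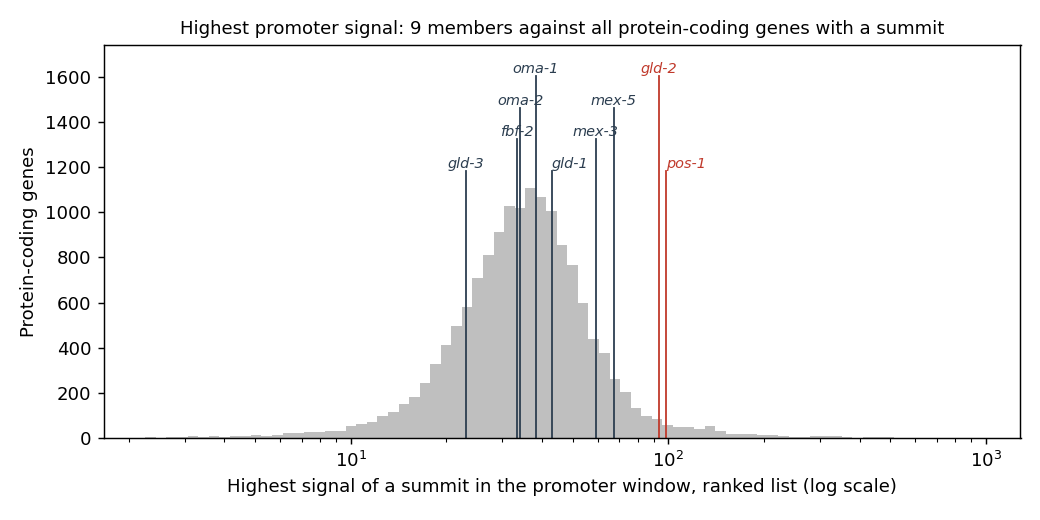
Number of genes by highest ranked-list signal in the promoter window (log scale on the x axis), over the 15000 genes with a ranked summit. Labelled lines mark the 9 members, of which pos-1 (98.2) and gld-2 (93.4) lie at the upper end, in the top 2.84% and 3.06%, and gld-3 (23.0) lies lowest.

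By signal the members thus ran pos-1, gld-2, mex-5, mex-3, gld-1, oma-1, oma-2, fbf-2 and gld-3 in the list from both replicates. pos-1 and gld-2 changed places between the replicates, as did gld-2 and mex-5, and mex-5 and mex-3, so these neighbours cannot be ordered beyond the spread between replicates. In replicate 1 gld-2, at 39.7, was also below fbf-1. gld-1 stood above fbf-2, oma-2 and gld-3 in each replicate, and the order of those 3 differed between the replicates. Leaving out fbf-1 and fbf-2 for the likeness of their coding parts, the strongest peak of the whole locus in this ranked list lay in the promoter window for mex-3, gld-2, gld-3, pos-1 and mex-5. In gld-1, oma-1 and oma-2 it lay in the gene body. Of the 9 strongest window summits, 7 lay upstream of the nearest start and 2 downstream, 5 lay between genes, 2 in coding exons, 1 in an intron and 1 in a 5′ UTR. The window itself covers 1000 bp upstream and 200 bp downstream of a start. The same shares over all genes were not computed, so no preferred position of the members is read from these counts. All 18 summits stood in peaks of 296 bp with the summit at the centre, the form of 99.9% of all ranked peaks, so peak width carries no information on these sites.

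**Figure D4:**
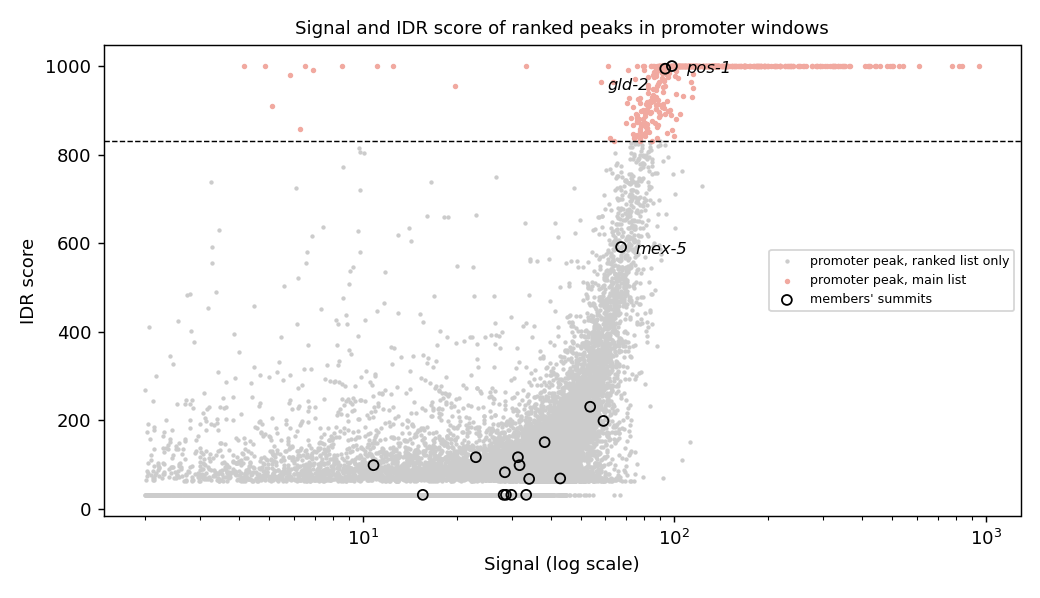
IDR score against signal (log scale) for ranked peaks in promoter windows of all genes, with main-list peaks in red and the members' 18 summits as open circles. The dashed line is the lowest main-list score (830). pos-1 and gld-2 lie above it, mex-5 (67.4, score 591) is the nearest below, and the other 15 have scores under 300. The median score of all ranked peaks was 69.

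In the ranked list from both replicates, score and signal placed the members alike at the top of the set. The replicates' own ranked lists did not. In replicate 1 the score of pos-1 was 131, below gld-2 (260), mex-5 (241) and gld-1 (153). In replicate 2 that of mex-5 was 29, below gld-1 (47), gld-3 (46) and mex-3 (33). In the whole ranked list 950 peaks reached the score of 830, of which 892 form the main list. gld-2, at 93.44, stood among 155 ranked peaks within 5% of its signal, of which 126 (81.3%) were in the main list. At the signal of mex-3 the band held 1791 peaks, with 3 (0.168%) in the main list and a median score of 323, above the 198 of its own peak. In the other ranked list from both replicates the same mex-3 peak had a score of 458. The median of the band was not computed for that list, so no low score for its signal is read from this.

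Short DNA motifs were sought on both strands within 100 bp of the strongest summit of the 9 members. The AP-2 palindrome GCCNNNGGC was in none of the 9, and was in 2.69% of main-list windows, 1.42% of ranked windows of the same length and 5.51% of the longer promoter windows. An E2F-type site (TTTCCCGC, TTTCGCGC, TTTGCCGC or TTTGGCGC) was also in none of the 9, against 12.2% of main-list and 3.97% of ranked windows. The GC box GGGCGG was in 1, that of mex-3, against 11.5% and 4.4%. GATAAG was in none, against 5.61% and 7.33%. In the longer promoter windows of the members the AP-2 palindrome was found for mex-3, and E2F-type sites for gld-3, fbf-2, oma-1 and oma-2. The GC box was found there for mex-3, gld-3 and fbf-1, and GATAAG for gld-1, mex-3, gld-2 and pos-1. Over all promoter windows the shares were 16.7% for the E2F-type site, 19.9% for the GC box and 41.2% for GATAAG. Absence of these letters says nothing of which factor was bound. The GC content of the summit windows was 48.3% for gld-2, 34.8% for pos-1 and 31.3% for mex-5, against medians of 45.3% over main-list windows and 38.8% over ranked windows.

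A further 39 genes for RNA regulators of the germline and embryo were set beside the members, among them other PUF, CCCH, CPEB, Nanos and deadenylase genes. In the main list 4 of the 39 (10.3%) had a summit, atx-2, larp-1, mex-1 and puf-9, beside 3.15% of all genes. In each replicate's thresholded list 3 of them did (7.69%), atx-2, larp-1 and mex-1. Those lists named 1.46% of all genes in replicate 1 and 1.7% in replicate 2. Each of the 4 main-list genes had an IDR score of 1000 and a higher signal than any member. A ranked summit was found for 35 of the 39 (89.7%), beside 75.1% of all genes. Over these 35 the median highest ranked signal was 50.03 against 42.98 for the members. The order turned in the other ranked list, with 47.97 against 49.5 for the members, and in replicate 2, with 23.8 against 28.6, while replicate 1 gave 30.4 against 29.8. The 49.5 is the value of fbf-1, which had a summit in the other ranked list while oma-1 had none. The remaining members had the same highest signal in both joint lists. The medians of both lists therefore have no stable order.

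atx-2, the ataxin-2 gene, whose product acts in translational regulation in the germline, had the highest signal of the 4, 155.9 at 73 bp upstream, with 88.4 in replicate 1 and 94.6 in replicate 2. That summit also lay 765 bp upstream of the divergent gene ecps-1, and a second main-list summit of atx-2 lay 600 bp upstream with 136.3. larp-1, for a La-related RNA-binding protein, had 149.1 at 668 bp upstream, 321 bp upstream of the divergent gene wip-1. mex-1, for a CCCH protein of the early embryo, had 147.7 at 915 bp upstream, nearer to W03C9.5 (178 bp) and also in the window of rab-7, and a second of 109.1 at 163 bp upstream, which held 1 E2F-type site. puf-9, a PUF gene known for its role in the soma, had 106.6 at 290 bp upstream, with non-coding genes within 200 bp. The strongest atx-2 window held the GC box and the puf-9 window GATAAG. The windows of the remaining main-list summits of atx-2, larp-1 and mex-1 held none of the motifs sought. Of all main-list windows 12.2% held an E2F-type site, 11.5% the GC box and 5.61% GATAAG. In 3 of these 4 genes, all but puf-9, the strongest main-list summit thus also lay in the window of another protein-coding gene, as for pos-1 but not for gld-2. The share over all main-list summits in promoter windows was not computed, so this is not read as a trait of these genes.

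Genes whose mRNAs are reported targets of the members were taken as a list of 26, of which 5 are also among the 39. In the main list and in each of the other 3 thresholded lists 1 of the 26 (3.85%) had a summit, cdc-25.3, for a cell cycle phosphatase. Its signal was 503.9 at 261 bp upstream (III:8918071-8918289), with 245 in replicate 1 and 260 in replicate 2, and it was gene 10 of the 15000. The window of that summit held the GC box. Over the 25 target genes with a ranked summit the median highest signal was 41.77, and 96.2% of the list had one, beside 75.1% of all genes. The share of target genes in the main list was near that of all genes, 3.15%. In the other thresholded lists the share of all genes was 3.07% (both replicates), 1.46% (replicate 1) and 1.7% (replicate 2).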

How the data were processed

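The authors deposited peak lists (narrowPeak) on assembly ce11, which is WBcel235, for each replicate and for both together. Per the deposited README text, lists were thresholded or ranked by IDR from filtered alignments and a control file. The sources used here do not name the aligner or the peak caller. The signal column is the deposited peak strength, on a scale that is not stated, and signals of different lists, which may differ in scale, are given side by side and not compared in size. The deposited IDR score has a maximum of 1000. Depth is unknown from such lists.

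Summits (start plus offset) were assigned to windows around the 29314 protein-coding starts of Ensembl release 115. All peak ends lay within the 6 chromosomes. Other settings were wider or narrower windows, nearest start, peak overlap, the stronger 50% of peaks, and leaving out each replicate. Repeat copies were sought with BLAST 2.17.0, and their minimum length of 80 bp was lowered from 100 bp after the values were seen. Promoter and coding alignments used Biopython 1.88, tables pandas 2.3.3 and NumPy 2.4.6, and figures matplotlib 3.10.9. The assignment was tested on simulated peaks. Members and gene lists were chosen with earlier results of these data known. Named genes are the members, list genes in the main list, genes sharing a member's strongest summit, and those most like the strongest member in signal, and other neighbouring or summarised genes were added after their values were seen. The labels give 2 biological replicates and 1 group, so no group comparison was made.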

Additional observations from a re-analysis of the deposited data

How the results depend on the processing

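The count of 2 members with a main-list summit was also 2 with the other thresholded list (3.07% of all genes), with windows of 500 bp (2.43%) or 2000 bp upstream (4.09%), with each summit given to its nearest start (3.16%), and with peak overlap (3.36%). It was 0 in the stronger 50% of the main list by signal, which named 1.92% of all genes, and 0 for peaks listed in both replicates, which named 1.07%. The main-list signals of pos-1 (98.15) and gld-2 (93.44) lay below the median of 102.9 at which the stronger 50% begins. Without replicate 1 (1.7% of all genes) or without replicate 2 (1.46%) the count was 0. These are the thresholded lists of the single replicates already given above. The 0 for peaks listed in both replicates draws on the same 2 lists, so it is not a separate result. In the ranked list of replicate 1 the highest IDR score was 131 for pos-1 and 260 for gld-2. In that of replicate 2 it was 640 and 475. Why these scores were lower than in the joint list was not tested. The median highest signal of the members, 42.98, was 48.7 with windows of 2000 bp upstream and 49.5 in the other ranked list, and 28.6 to 29.8 with either replicate left out, where each list has its own scale. The change to 49.5 came with fbf-1 in place of oma-1 among the members with a summit. The median highest IDR score, 150, was 39.5 to 99 with either replicate left out. With 250 bp on each side of the summit, 2 members (fbf-2 and oma-1) had an E2F-type site and 1 (pos-1) had GATAAG, where 100 bp gave 0, and the GC box count was 0 with 50 bp. A longer window holds more sequence, and shares over all peaks were not computed for these lengths, so the changes are not read as a trait of the members. The list of 39 kept a count of 3 to 4 and the target list 1 under every setting tried. Over those settings the share of all genes ran from 1.07% to 4.09%. The order of mex-3 and gld-1 turned with windows of 2000 bp upstream, and that of the medians of the members and the list of 39 turned in the other ranked list and in replicate 2. No paired analysis was possible because all samples form 1 group. The unknown depth, the missing untagged library and the mixed tissues limit what a weak peak can show.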
